A study of Mus musculus with 8 samples.

Results

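RNA precipitated with an anti-GFP antibody from testes of mice at postnatal day 14 was set against the input, the total RNA of the same tissue. The comparison asked which transcripts the precipitate held above or below their abundance. It rests on 4 of the 8 arrays of the series, 2 GFP precipitates and 2 inputs, chosen by their titles and by the antibody named for each sample. The other 4 arrays, 2 V5 precipitates and 2 mock precipitates with normal mouse IgG, entered the statistical model and are shown beside the main values. Every group, the input and the IgG mock included, came from male testes of a mixed C57BL/6 129SV strain whose germ cells expressed Dazl-GFP-V5, the germ cell protein DAZL carrying a GFP tag and a V5 tag. Testes were dissociated and lysed without crosslinking. No untagged testis was among the groups, and the labels give neither the promoter of the fusion nor how many animals were used, so p-values rest on the spread between these arrays alone, and that spread may be technical. The series' design text names an anti-PABP1 antibody where the sample labels name anti-GFP, and the sample labels were followed. The description of input replicate 2 calls it precipitated RNA and that of V5 replicate 1 calls it total RNA, against their titles, and counts without both arrays are given with the first calls below.

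DAZL is an RNA-binding protein of germ cells that recognises U-rich sites, mostly in the 3′ untranslated regions of mRNAs, and is known to act on their translation and stability, in part through poly(A)-binding proteins. It is needed for germ cells to develop and to enter meiosis. At this age the mouse testis holds spermatogonia and spermatocytes in meiotic prophase, together with Sertoli, Leydig, peritubular and blood-derived cells. In a native precipitation without crosslinking, RNA can also come down through its abundance, its binding to beads or antibody, or its association with other proteins after lysis, and a mock precipitate is the usual control for binding to beads and antibody.

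Each array carried 43379 non-control spots. Between 57.2% and 62.2% of them were well above background and 0 were saturated. Values are given as relative signal, the spot's processed intensity divided by the 75th percentile of its array, and fold changes as log2 of the GFP precipitate over the input. A relative signal can be compared between arrays for the same probe but not between probes. The replicates correlated at 0.9949 for the GFP precipitates and 0.9969 for the inputs over all probes, and their replicates differed by a median of 0.0852 and 0.0768 log2 units in size. The GFP and V5 arrays lay on 1 slide and the input and IgG arrays on the other. Slide and group therefore cannot be told apart in the comparison of GFP with input. The same holds for GFP against IgG and for V5 against input. GFP against V5 and IgG against input each lie within a slide, and values of the IgG precipitate against the same input arrays are given for some of the genes and lists below, and those of the V5 precipitate for fewer. These comparisons share the input arrays and are not independent of one another. Against the input, 37.7% of genes were called higher and 35.6% lower in the V5 precipitate, and 43.9% higher and 29.4% lower in the IgG mock. Between the GFP and V5 precipitates 7.2% of genes were called higher and 6.81% lower in GFP. The input held the defining germ cell transcripts Dazl and Ddx4 above background, but also 26 of 26 measured Sertoli cell markers and 15 of 15 peritubular myoid cell markers, although the labels name germ cells as the cell type.

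The precipitate differed from the input over most of the transcriptome. Of 17574 genes tested with limma, 6356 were higher in the GFP precipitate, which is 36.2%, and 6870 were lower, which is 39.1%, at an adjusted p under 0.05. At least 2-fold differences were called for 1980 genes higher (11.3%) and 2882 lower (16.4%). At least 4-fold differences were called for 199 genes higher and 734 lower, and at least 8-fold differences for 7 higher and 186 lower. These counts include genes that were not well above background in the dimmer group, whose size of change is only a bound and which were more numerous on the low side. Among genes well above background on all 8 arrays the 2-fold counts were nearer to each other, at 1818 higher and 1925 lower. The median log2 fold change of all genes was -0.06, with 90% of genes between -1.88 and 1.40. In 90.2% of genes the GFP arrays did not overlap the input arrays. Without input replicate 2 and V5 replicate 1, whose descriptions conflict with their titles, 5278 genes were higher and 5450 lower.

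The balance of higher and lower calls depended on the scaling of the arrays. Higher calls made up 48.1% of all calls here, 65.9% when arrays were scaled to their median spot and 31.2% when they were scaled to the spike-in control probes. The median fold change of all genes was 0.28 under median scaling and -0.38 under spike-in scaling, so each fold change below is relative to the scaling used. Normexp background correction, which treats dim spots differently, left 3192 genes higher and 2506 lower. Of the called genes with more than 1 kept probe, 1198 of 4713 had at least 1 probe pointing the other way, and each gene is represented here by its brightest probe.

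The largest over-representations among genes above background in both groups were those of Zdhhc18, Usp19, Cenpa, Prmt3, Dusp14, E2f2, Paqr9, Tsc22d3, Col6a3 and Ccnd1, with log2 fold changes from 2.69 to 2.84. Zdhhc18, a palmitoyltransferase, had a relative signal of 2.14 and 2.13 in the GFP precipitates, against 0.300 and 0.296 in the inputs. Its log2 fold change was 2.84 ± 0.08 (SE; adjusted p = 4.91e-06). Usp19, a deubiquitinating enzyme anchored in the endoplasmic reticulum, had 51.7 and 50.6 in the GFP precipitates, against 6.87 and 7.49 in the inputs. In each of these genes both GFP arrays lay above both input arrays, with little spread within a group.

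Several of these transcripts encode regulators of the cell cycle and of chromosomes. Cenpa, the histone H3 variant of centromeres, had 1.68 and 1.71 in the GFP precipitates and 0.218 and 0.261 in the inputs (log2 2.83 ± 0.12). E2f2, a transcription factor of the G1/S transition, had 11.2 and 11.1 in the GFP precipitates and 1.60 and 1.61 in the inputs (log2 2.80 ± 0.14). Ccnd1, the cyclin D1 gene, had 7.20 and 7.11 in the GFP precipitates and 1.09 and 1.12 in the inputs (log2 2.69 ± 0.11). The X-linked Tsc22d3, a glucocorticoid-induced leucine zipper gene, had 47.6 and 42.3 in the GFP precipitates, against 6.56 and 6.49 in the inputs. The other members of the group were Dusp14, a dual-specificity phosphatase gene, at log2 2.80 ± 0.13, Paqr9, a membrane progestin receptor family gene, at 2.78 ± 0.08, and Col6a3, a collagen VI chain gene, at 2.74 ± 0.08. Prmt3, an arginine methyltransferase of ribosomal protein S2, reached 2.82 ± 0.10 at its brightest probe, where the relative signal was 6.49 and 6.15 in the GFP precipitates and 0.850 and 0.936 in the inputs. Its other 2 probes gave 0.23 and -0.27, so the value belongs to that probe and not to the gene as a whole.

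The largest under-representations were deeper than the largest over-representations, and 9 of the 10 lowest genes are described. Sycp1, the transverse filament protein of the synaptonemal complex, had a relative signal of 0.0726 on both GFP arrays, against 6.68 and 6.22 in the inputs, a log2 fold change of -6.47 ± 0.19 (adjusted p = 4.91e-06). It stayed well above background on both GFP arrays, so the fold is not a bound. Ccar1, a transcriptional coactivator gene of cell cycle and apoptosis, had 0.230 and 0.213 in the GFP precipitates and 5.51 and 5.03 in the inputs (-4.57 ± 0.19). The X-linked Thoc2, a subunit of the THO mRNA export complex, had 0.0362 and 0.0459 in the GFP precipitates and 0.928 and 0.748 in the inputs (-4.35 ± 0.32). The remaining 6 were Hormad1, a protein of the meiotic chromosome axis, at -4.28 ± 0.24, the X-linked Hmgn5 (Nsbp1 on the array), a nucleosome-binding protein, at -4.13 ± 0.16, Ube2u, a ubiquitin-conjugating enzyme gene, at -4.10 ± 0.16, Cfap36 (Ccdc104) at -4.10 ± 0.22, Glmn, the glomulin gene, at -4.02 ± 0.20, and Tax1bp1, an autophagy receptor gene, at -4.02 ± 0.11. In all 9 the GFP arrays lay below the input arrays, and of these only the call of Thoc2 was lost under normexp.

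**Figure D1:**
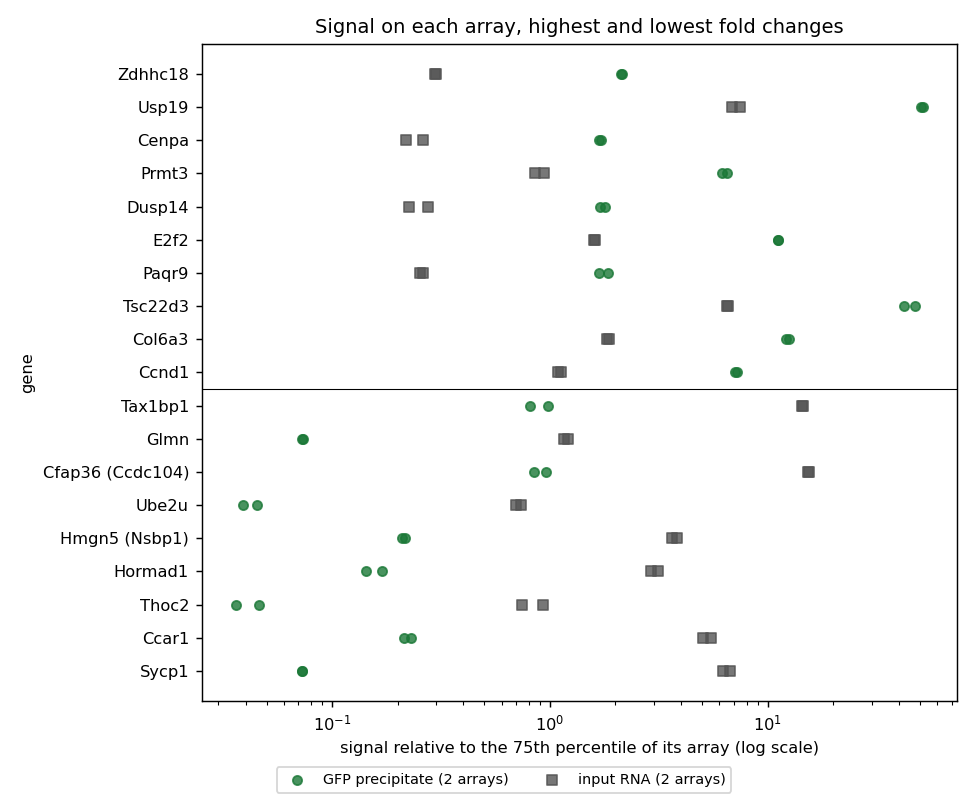
Relative signal on each array (x axis, log scale, in multiples of the array's 75th percentile) for the 10 genes with the highest and 9 with the lowest log2 fold change among genes above background in both groups (y axis), with green circles for the 2 GFP precipitates and grey squares for the 2 inputs. The 2 arrays of a group lie close together and the groups do not overlap in any of the 19 genes.

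Some transcripts were measured in only one group and have only a bound. There were 751 such genes called lower, not well above background on either GFP array, and 165 called higher, not well above background on either input array. Against the lowest signal well above background, Ift74, a gene of the intraflagellar transport machinery, was at least 42.7-fold lower in the GFP precipitates, Ndc80 (Kntc2) at least 40.1-fold lower and Knl1 (Casc5) at least 11.6-fold lower. Ndc80 and Knl1 both encode parts of the outer kinetochore. Cep290, a ciliary transition zone gene, was at least 9.29-fold lower and Zfp53, a zinc finger gene, at least 6.51-fold lower. On the other side, Dlx2, a homeobox gene, was at least 7.68-fold higher in the GFP precipitates, Tmem30b, a flippase subunit gene, at least 7.09-fold higher and Pygo1, a Wnt pathway gene, at least 4.56-fold higher. The bounds of Dmrta2 and Insm1, both genes of transcription factors, were at least 2.70-fold and at least 1.62-fold higher. Ift74 had 1.14 and 1.06 in the inputs, and Dlx2 had 0.218 and 0.244 in the GFP precipitates, well apart from their own signal in the dimmer group. Under normexp the calls of Ndc80, Knl1, Cep290, Zfp53, Dmrta2 and Insm1 were lost and those of the other 4 genes with a bound were kept.

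Among the 1758 genes with the brightest mean signal, bin 10 of 10 by signal, the largest differences were smaller on the low side. Tex19.1 (Tex19 on the array), a germ cell gene reported among the targets of DAZL, had 108 and 94.8 in the GFP precipitates, against 17.5 and 17.4 in the inputs, at log2 2.54 ± 0.09. In the IgG mock Tex19.1 was also above input, at 1.35, and GFP exceeded IgG by 1.19. Pou3f1, a POU domain transcription factor of spermatogonia, had 30.4 and 26.96 in the GFP precipitates, against 4.59 and 4.59 in the inputs, at 2.64 ± 0.12. Alkbh5, the demethylase that removes m6A from RNA, had 56.7 and 54.4 in the GFP precipitates, against 9.72 and 9.79 in the inputs, at 2.51 ± 0.08. The bright transcripts that were most under-represented included markers of somatic cells. Aldh1a1, a retinaldehyde dehydrogenase, had 13.7 and 13.9 in the GFP precipitates, against 73.5 and 74.6 in the inputs, at -2.42 ± 0.06. Acta2, the smooth muscle actin of peritubular myoid cells, had 10.2 and 10.98 in the GFP precipitates, against 54.01 and 52.4 in the inputs, at -2.33 ± 0.13. Rhox5, an X-linked homeobox gene of Sertoli cells, had 7.65 and 7.29 in the GFP precipitates, against 32.1 and 32.9 in the inputs, at -2.12 ± 0.08. The other 2 were the X-linked Maged2 at -2.20 ± 0.07 and Psma6, a core proteasome subunit, at -2.04 ± 0.06. In the IgG mock against input, Pou3f1 was at 1.56 and Alkbh5 at 1.11. Aldh1a1 was at -1.84 in the mock, Acta2 at -1.41, Rhox5 at -1.44, Maged2 at -1.37 and Psma6 at -1.85.

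The 10 highest and 9 of the lowest genes are set beside the other 2 precipitates here, each against the same input arrays. For the 10 most over-represented genes the V5 precipitate gave log2 values from 2.10 to 3.12 and the IgG mock from 0.77 to 3.58. Usp19 was higher in the IgG mock than in the GFP precipitate (3.58 against input in IgG, and GFP minus IgG -0.75, adjusted p = 5.56e-04 by limma), and so was Col6a3 (3.07 in IgG, and GFP minus IgG -0.34, adjusted p = 0.00781). For the other 8 the GFP precipitate exceeded the IgG mock by 0.94 to 2.01 on the log2 scale. Tsc22d3 stood farthest above the mock among them, at 0.77 in IgG against 2.78 in GFP, and Paqr9 followed at 1.11 in IgG against 2.78 in GFP. For comparison, 21.6% of all genes were called higher and 52.1% lower in GFP than in IgG. GFP and IgG lay on different slides, and other scalings were not run for this contrast. The 75th percentile minus the spike-in level was -3.73 and -3.81 in log2 on the GFP arrays, and -4.23 and -4.26 on the IgG arrays. Scaling to the spike-in probes would therefore move every GFP minus IgG value upward. The sign of small negative differences, such as that of Col6a3, depends on the scaling.

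The most under-represented transcripts were also far below the input in the IgG mock. Sycp1 was at -6.47 in GFP, -6.25 in V5 and -6.15 in IgG, each against input. Its GFP minus IgG was -0.32 (adjusted p = 0.161). Of these 9 genes, Ube2u was lower in GFP than in IgG by a called difference (-0.74, adjusted p = 0.00598) and Hormad1 was higher (0.64, adjusted p = 0.0497). The other 7 did not pass, with differences from -0.60 to 0.33. A p that misses the threshold does not show that the levels were equal.

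**Figure D2:**
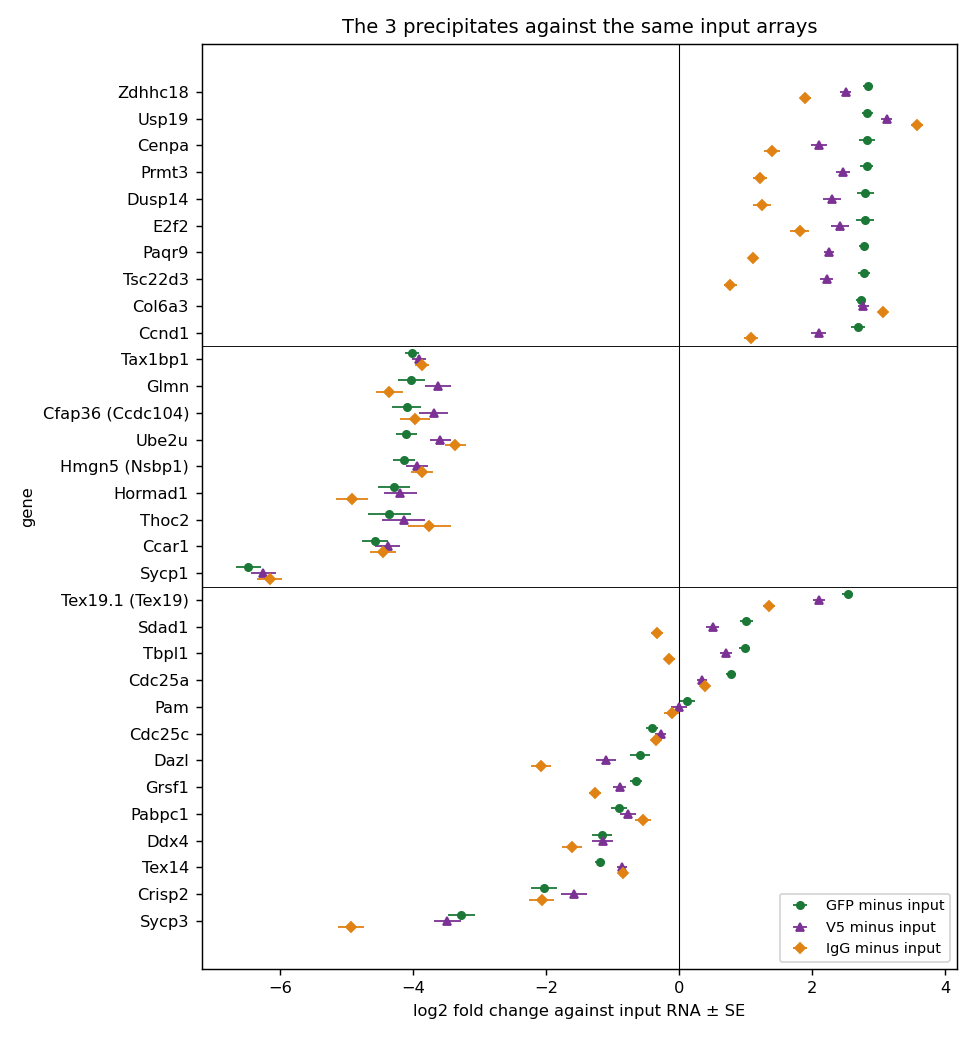
Log2 fold change against the same 2 input arrays (x axis, ± SE) of the GFP precipitate (green circles), the V5 precipitate (purple triangles) and the IgG mock (orange diamonds) for the 10 highest genes, 9 of the lowest and the reported DAZL-bound genes with Dazl and Pabpc1 (y axis, n = 2 arrays per group). The 3 precipitates lie close together for Sycp1, between -6.47 and -6.15, and far apart for Tsc22d3, Dazl and Sycp3.

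The transcripts reported elsewhere as bound by DAZL did not stand together above the input. Of 13 measured genes of this list, which includes Dazl itself, 4 (30.8%) were higher in the GFP precipitate and 8 (61.5%) lower. Over all genes 36.2% were higher and 39.1% lower. The list had a median log2 fold change of -0.58, against -0.06 over all genes. The highest were Tex19.1, given above, Sdad1, a nucleolar protein gene (1.01 ± 0.09), Tbpl1, a TBP-like factor needed in spermatids (0.99 ± 0.09), and Cdc25a, a phosphatase that activates cyclin-dependent kinases (0.78 ± 0.08). Sdad1 rests on its brighter probe, with 32.96 and 31.99 in the GFP precipitates and 16.7 and 15.5 in the inputs. Its dimmer probe gave -2.21, and the mean of both gave -0.60. The lowest were Sycp1, Sycp3, Crisp2, Tex14 and Ddx4. Crisp2, a sperm head and tail protein gene, was at -2.03 ± 0.19 and Tex14, a gene of intercellular bridges between germ cells, at -1.19 ± 0.08. Grsf1, an RNA-binding protein gene, was at -0.65 ± 0.09 and Cdc25c at -0.41 ± 0.09, while Pam at 0.13 ± 0.12 did not pass. The calls of Tbpl1 and Crisp2 were lost under normexp, and that of Cdc25c under normexp, quantile and median scaling and without both arrays of conflicting descriptions.

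Against the IgG mock, 8 of the 13 genes were called higher in GFP and 1 lower, at a median of 0.45, where 21.6% of all genes were called higher. Some of these lay below the input and yet above the mock. Dazl had 10.4 and 9.11 in the GFP precipitates, against 14.2 and 15.03 in the inputs, at log2 -0.58 ± 0.15 (adjusted p = 0.0112). The call was lost under median scaling (-0.24, adjusted p = 0.197), under normexp (-0.75, adjusted p = 0.0757), without GFP replicate 2 (-0.49, adjusted p = 0.0585), without input replicate 2 (-0.54, adjusted p = 0.0566) and without both arrays of conflicting descriptions (-0.54, adjusted p = 0.0869). In the IgG mock Dazl was at -2.08 against input, so GFP exceeded IgG by 1.49 (adjusted p = 3.68e-04). Sycp3, a lateral element protein of the synaptonemal complex, had 0.496 and 0.402 in the GFP precipitates, against 4.17 and 4.47 in the inputs, at -3.27 ± 0.20. It was lower still in the IgG mock, at -4.93, which left GFP 1.66 above IgG (adjusted p = 6.29e-04). Ddx4, the germ cell helicase VASA, was at -1.16 ± 0.15 in GFP and -1.61 in IgG, and GFP exceeded IgG by 0.45 (adjusted p = 0.0355). Grsf1 was at -1.27 in IgG, and GFP exceeded IgG by 0.62 (adjusted p = 0.00122). Pabpc1, the main cytoplasmic poly(A)-binding protein, ran the other way. It had 74.7 and 72.3 in the GFP precipitates, against 136 and 138 in the inputs, at -0.90 ± 0.12. The IgG mock was at -0.54, with GFP below IgG by a called difference (-0.36, adjusted p = 0.0340 by limma). The sign of that small difference depends on the scaling, as for Col6a3.

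The counts in each list below are to be read against 36.2% of all genes called higher and 39.1% lower. Of 43 measured genes of RNA-binding proteins and translational regulators of germ cells, 18 (41.9%) were higher and 9 (20.9%) lower. Their median was 0.22, which became -0.10 under spike-in scaling, and relative to the median of all genes it was 0.28 and became -0.07 under normexp. The list median was -0.39 in the IgG mock against input, and 0.72 for GFP against IgG. Lin28a (Lin28 on the array), which blocks the maturation of let-7 miRNAs and marks undifferentiated spermatogonia, had 2.53 and 2.45 in the GFP precipitates, against 0.439 and 0.425 in the inputs (2.53 ± 0.08). Cpeb1, which controls cytoplasmic polyadenylation, was at 2.16 ± 0.07 and Lin28b at 1.41 ± 0.07. Against them stood Fxr1 (Fxr1h), a paralog of the fragile X protein, with 4.57 and 3.85 in the GFP precipitates, against 24.9 and 26.04 in the inputs (-2.60 ± 0.10). In the IgG mock Lin28a was at 0.75, Cpeb1 at 0.92, Lin28b at -0.07 and Fxr1 at -3.04 against input. Among 27 genes of poly(A) tail binding and length control 14 were higher and 9 lower, at a median of 0.20 that became -0.12 under spike-in scaling, and relative to all genes -0.12 under normexp. Tob2, Paip2b (BC017133), Btg1 and Pabpn1, genes of deadenylation and of poly(A)-binding proteins or their inhibitor, were higher by 1.10 to 2.09.

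Most genes of spermatogonia lay on the over-represented side. Of 16 measured markers of undifferentiated spermatogonia, 10 were higher and 3 lower, at a median of 0.89. Apart from Lin28a, Sall4, a zinc finger factor of pluripotent and stem cells, had 3.71 and 3.97 in the GFP precipitates, against 0.855 and 0.820 in the inputs (2.20 ± 0.11). Bcl6b was at 1.86 ± 0.06 and Foxo1 at 1.69 ± 0.07, both genes of transcription factors of spermatogonial stem cells. Of 14 measured genes of differentiating spermatogonia 9 were higher and 2 lower, at a median of 0.72. Kit, the receptor for stem cell factor, had 7.71 and 7.16 in the GFP precipitates, against 1.90 and 1.91 in the inputs (1.96 ± 0.08). Its value in the IgG mock was 0.17, and GFP exceeded IgG by 1.79. Markers of undifferentiated spermatogonia were also above input in the IgG mock, at a list median of 0.66, with Sall4 at 0.91, Bcl6b at 1.04 and Foxo1 at 0.36, and GFP against IgG had a list median of 0.33. The genes of differentiating spermatogonia had a median of -0.09 in the IgG mock, and 0.88 for GFP against IgG. Dnmt3b, a de novo DNA methyltransferase, was at 1.76 ± 0.07, Dmrt1, a factor of spermatogonia and Sertoli cells, at 1.61 ± 0.08 and Sohlh2 at 1.42 ± 0.07. The lower undifferentiated markers were Utf1 at -0.72, Nanos3 at -0.65 and Taf4b at -0.35. The lower genes of differentiating spermatogonia were Tex11 at -2.84 and Rhox13 (1700123J19Rik) at -0.74. Etv5, Lhx1, Pou5f1, Stra8, Dnmt3l and Uchl1 did not pass. The summed relative signal of the undifferentiated markers was 36.3 and 37.1 in the GFP precipitates, against 13.8 and 13.8 in the inputs. That of the differentiating genes was 229 and 215, against 189 and 189. Such sums weigh the brightest probes most. In some other lists they ran against the median. The reported DAZL-bound genes summed to 207 and 186 in the GFP precipitates, against 109 and 110 in the inputs. The medians of both spermatogonial lists stayed above 0 under median, quantile and spike-in scaling and under normexp.

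Meiotic genes were mostly lower than in the input, with exceptions inside the same complex. Of 13 measured genes of the synaptonemal complex and chromosome axis 4 were higher and 7 lower, at a median of -0.24, which became 0.10 under median scaling. The list median was -0.49 in the IgG mock against input, and 0.39 for GFP against IgG. Against IgG, 7 of the 13 were called higher and 4 lower, where 21.6% of all genes were called higher and 52.1% lower. Besides Sycp1, Hormad1 and Sycp3, the axis gene Sycp2 (4930518F03Rik) was at -2.88 ± 0.18 and Syce1, of the central element, at -1.42 ± 0.08. Other genes of the central element were higher, with Tex12 at 1.41 and Syce2 at 1.12. Of 21 measured genes of meiotic recombination 3 were higher and 14 lower, at a median of -0.71. Mns1 is in this list but is not an established recombination factor. It had 3.06 and 2.93 in the GFP precipitates, against 25.98 and 26.8 in the inputs (-3.14 ± 0.07). Tex15, a gene needed for double-strand break repair in spermatocytes, was at -2.78 ± 0.09, Hfm1, a crossover helicase that was above background on only 1 GFP array, at -2.64 ± 0.09 and Meiob (4930528F23Rik), a single-strand DNA-binding factor, at -1.82 ± 0.09. The IgG mock gave -2.75 for Mns1, -2.48 for Tex15, -2.48 for Hfm1 and -1.56 for Meiob against input. The call of Hfm1 was lost under normexp.

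The piRNA pathway was split. Of 22 measured genes 7 were higher and 12 lower, at a median of -0.35. Pld6 (4933433K01Rik), a mitochondrial nuclease of primary piRNA processing, had 41.6 and 39.04 in the GFP precipitates, against 10.6 and 11.1 in the inputs (1.89 ± 0.12), and Henmt1 (4921515J06Rik), which methylates piRNA ends, was at 1.31 ± 0.07. The Tudor domain genes Tdrkh and Tdrd3 were at -1.89 ± 0.08 and -1.70 ± 0.06. Tdrd3 is in this list but is not an established piRNA factor. Of 28 measured genes of late spermatocytes and spermatids 2 were higher and 16 lower, at a median of -0.62, which became 0.06 under normexp. Spata16, of the acrosome, was at -2.22 ± 0.11, Spag6 at -1.55 ± 0.08 and Adam3 at -1.21 ± 0.07, the last of which was lost under normexp. Odf2, of the sperm tail, was at -1.27 ± 0.07 at its brightest probe, while its other 2 probes gave 0.44 and 0.22.

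Pluripotency and Polycomb genes were more often higher than lower, where 36.2% of all genes were higher and 39.1% lower. Of 23 measured pluripotency genes 14 were higher and 6 lower, at a median of 0.44, of which Lin28a and Sall4 also count among the spermatogonial markers. Dppa3 was at 1.96 ± 0.09, Mycn at 1.75 ± 0.07 and Tfcp2l1 (Tcfcp2l1) at 1.67 ± 0.07. Dppa3 was at -0.21 in the IgG mock, and GFP exceeded IgG by 2.17, whereas Mycn was at 0.48 and Tfcp2l1 at 0.61 in the mock. The whole pluripotency list had a median of 0.08 in the mock against input and of 0.03 for GFP against IgG. Of 34 measured Polycomb genes 24 were higher and 3 lower, at a median of 0.59. Cbx2, a chromobox protein of repressive complex 1, had 5.26 and 5.64 in the GFP precipitates, against 1.04 and 1.06 in the inputs (2.38 ± 0.08). Yaf2, a RYBP paralog, was at 1.90 ± 0.06 and Kdm2b (Fbxl10) at 1.52 ± 0.07. The 3 lower ones were Ezh2 at -1.33, Eed at -1.06 and Rbbp7 at -0.55. Ezh2 and Eed are the catalytic and a core subunit of repressive complex 2, while Suz12 of the same complex was higher at 1.06.

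Of 49 measured cyclins, cyclin-dependent kinases, inhibitors and E2f factors 29 were higher and 10 lower, at a median of 0.42. Besides E2f2 and Ccnd1, the inhibitors Cdkn2d and Cdkn2c were at 1.56 ± 0.07 and 1.49 ± 0.07. Cdkn2d had 50.4 and 49.8 in the GFP precipitates, against 17.1 and 16.8 in the inputs. Of 39 measured kinetochore and spindle checkpoint genes 13 (33.3%) were higher and 20 (51.3%) lower, at a median of -0.27, which became 0.07 under median scaling. The range in that list was wide, with Cenpa at 2.83, Aurkb, the kinase of the chromosomal passenger complex, at 1.35 ± 0.07, Zwint at -1.79 ± 0.08, and Knl1 and Ndc80 with the bounds given above. Of 35 measured apoptosis genes 17 (48.6%) were higher and 13 (37.1%) lower, against 36.2% and 39.1% of all genes. The median of this list, 0.22, became -0.09 under spike-in scaling. In the IgG mock the list median was 0.24 against input, and for GFP against IgG it was -0.30. Against IgG, 8 (22.9%) of these genes were called higher and 19 lower, where 21.6% of all genes were called higher and 52.1% lower. Casp2 was at 1.81 ± 0.09 and the initiator Casp9 at 1.64 ± 0.08, while the initiator of the death receptor branch, Casp8, was at -2.36 ± 0.11. Casp8 had 0.270 and 0.291 in the GFP precipitates, against 1.44 and 1.44 in the inputs.

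Ubiquitin-conjugating enzymes were predominantly higher. Of 31 measured 24 were higher and 4 lower, at a median of 0.74, above 0 under median, quantile and spike-in scaling and under normexp. Ube2e2 had 27.5 and 25.001 in the GFP precipitates, against 6.79 and 6.95 in the inputs (1.93 ± 0.08). Ube2e3 was at 1.65 ± 0.08 and Ube2j2, of the endoplasmic reticulum, at 1.62 ± 0.06, with 1 of its 3 probes pointing the other way. The summed relative signal of the list was 653 and 619 in the GFP precipitates, against 330 and 346 in the inputs. The ubiquitin-specific proteases, which reverse that reaction, had 17 of 48 (35.4%) higher and 23 (47.9%) lower, against 36.2% and 39.1% of all genes, at a median of -0.23, which became 0.11 under median scaling. Next to Usp19, this list held Usp15 at -3.76 ± 0.15 and Usp9x at -3.35 ± 0.13. Usp15 was measured by 5 probes, of which 3 gave -3.93 to -3.69, 1 gave -0.51 and 1 gave 0.13.

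Of 21 measured subunits of TFIID and their paralogs 10 were higher and 4 lower, at a median of 0.10 that became -0.21 under spike-in scaling. Taf11 was at 1.32 ± 0.07 and Taf4 (Taf4a) at 1.28 ± 0.08, whereas Taf15 was at -1.61 ± 0.12. Of 39 measured genes of signal peptide recognition, translocation and glycosylation at the endoplasmic reticulum 18 were higher and 10 lower, at a median of 0.25 that became -0.06 under spike-in scaling. Spcs2, of the signal peptidase complex, had 57.3 and 55.3 in the GFP precipitates, against 15.7 and 16.7 in the inputs (1.80 ± 0.09). Srp14, of the signal recognition particle, was at 1.70 ± 0.08, while Srp54 of the same particle was at -2.19 ± 0.11.

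Genes of the protein synthesis, folding and degradation machinery were mostly lower. Of 39 measured proteasome genes 29 were lower and 1 higher, at a median of -0.85. Psmd12 had 6.84 and 6.24 in the GFP precipitates, against 29.6 and 30.7 in the inputs (-2.20 ± 0.07), and Psmd13 was at -1.96 ± 0.07 and Psmc2 at -1.89 ± 0.06. The median of this list in the IgG mock was -0.75 against input. Of 15 measured subunits of the chaperonin and of prefoldin 11 were lower and 2 higher, at a median of -0.88. Cct4 had 6.47 and 5.83 in the GFP precipitates, against 29.2 and 31.1 in the inputs (-2.30 ± 0.09), and Cct3 was at -2.13 ± 0.09. The IgG mock gave a list median of -0.87 against input, with Cct4 at -2.36 and Cct3 at -1.70. Prefoldin subunit Pfdn2 was higher, at 1.09 ± 0.06, with -0.70 in the IgG mock and GFP above IgG by 1.79. Of 32 measured translation initiation factors 19 were lower and 5 higher, at a median of -0.45. Eif2s2, the beta subunit of eIF2, had 2.91 and 2.67 in the GFP precipitates, against 22.6 and 23.7 in the inputs (-3.06 ± 0.09), and Eif3c (Eif3s8) was at -1.95 ± 0.07.

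Cytosolic ribosomal protein genes deviated less. Of 81 measured 46 were lower and 5 higher, but only 5 were lower by at least 2-fold, and the median of -0.29 became 0.05 under median scaling. Rpl4 was lowest at -2.04 ± 0.08, with 4.34 and 4.01 in the GFP precipitates and 16.4 and 18.1 in the inputs. Mitochondrial ribosomal protein genes had the same median of -0.29, also 0.05 under median scaling, with 46 of 78 lower and 13 higher. Mrps22 was at -2.18 ± 0.10. Mrpl1 was at -2.21 ± 0.12 at its brightest probe, and of its other 2 probes 1 gave -2.41 and 1 gave 0.08. Of 80 measured genes of oxidative phosphorylation 60 were lower and 6 higher, at a median of -0.57. Ndufs4 and Ndufs1, of complex I, were at -1.80 ± 0.09 and -1.24 ± 0.07, and Sdha, of complex II, at -1.50 ± 0.08. In the IgG mock the median of the cytosolic ribosomal list was 0.10, that of the mitochondrial list -0.04 and that of oxidative phosphorylation -0.05 against input. Of 16 measured genes of glycolysis 11 were lower and 1 higher, at a median of -0.59. Pgk1 was at -1.62 ± 0.10 and Pkm (Pkm2) at -1.25 ± 0.08.

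Of 31 measured replication-dependent histone genes 24 were lower and 7 higher, at a median of -0.97, and members of this family have near-identical sequences that can share probes. H2ac1 (Hist1h2aa), a testis-specific H2A gene, had 92.5 and 85.8 in the GFP precipitates, against 202 and 214 in the inputs (-1.22 ± 0.07). H4c9 (Hist1h4i) was the highest, at 1.73 ± 0.07. Of 52 measured DEAD and DEAH box helicase genes 32 were lower and 12 higher, at a median of -0.50. Ddx52 was at -3.56 ± 0.16 and Ddx1 at -2.37 ± 0.06, with 3.36 and 3.21 in the GFP precipitates and 16.99 and 17.1 in the inputs. The call of Ddx52 was lost under normexp.

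Genes named Zfp, mostly genes of C2H2 zinc finger proteins, spread widely. Of 292 measured 103 (35.3%) were higher and 134 (45.9%) lower, against 36.2% and 39.1% of all genes. Their median of -0.21 became 0.13 under median scaling and 0.16 under normexp. Their lower quartile was -1.24, against -0.71 over all genes. Zfp68 was at -3.23 ± 0.08 and Zfp277 at -2.34 ± 0.06. Zfp97 and Zfp987 (MGC117846), not well above background on either GFP array, were at least 20.9-fold and at least 29.1-fold lower. Normexp did not keep the calls of Zfp97 and Zfp987. In the IgG mock Zfp68 was at -2.83 and Zfp277 at -2.43 against input. Of 187 measured olfactory receptor genes 94 were lower and 7 higher, at a median of -0.69. Only 81 of the 187 were above background on both GFP arrays, and under normexp the median turned to 0.54, so the direction of this family differed with the treatment of dim spots. Collagen genes were mostly higher. Of 37 measured 26 were higher and 4 lower, at a median of 0.80. Col3a1 had 51.2 and 53.5 in the GFP precipitates, against 12.6 and 12.6 in the inputs (2.05 ± 0.06), and Col1a1 was at 1.73 ± 0.06. The IgG mock held the collagens higher still, at a median of 1.10 against input, with Col3a1 at 2.26 and Col1a1 at 2.18.

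**Figure D3:**
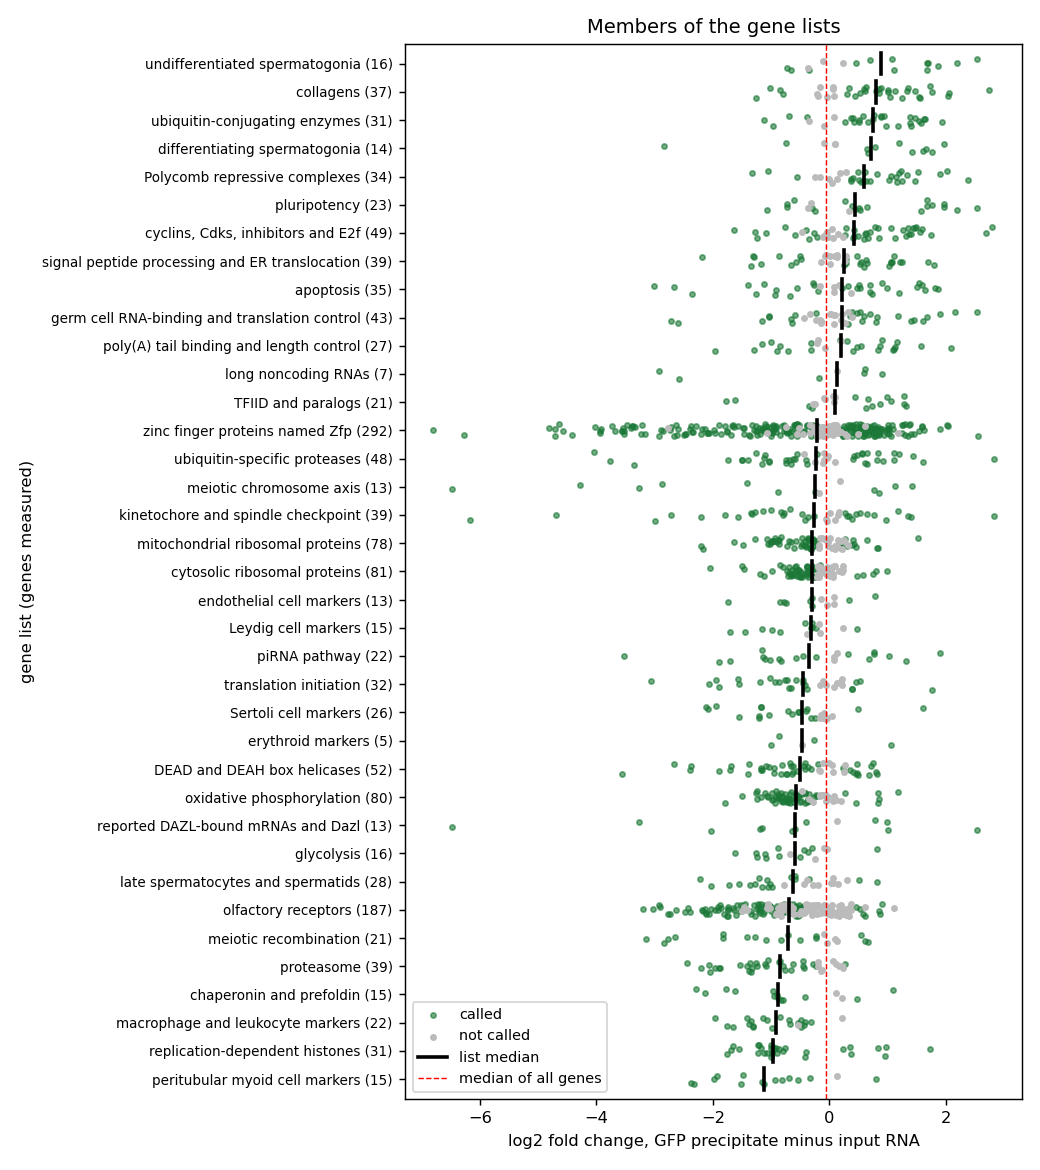
Log2 fold change of the GFP precipitate over the input (x axis) for the members of 37 gene lists (y axis, with the number of genes measured), green where limma called the gene and grey where it did not, with each list's median as a black bar and the median of all genes, -0.06, as a dashed red line. Undifferentiated spermatogonia lie at the top with a median of 0.89 and peritubular myoid cell markers at the bottom with -1.12. Array scaling shifts all lists together, and 8 list medians change sign under median scaling, 6 under spike-in scaling and 4 under normexp.

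Long noncoding RNAs did not move together. Of 7 measured 3 were higher and 3 lower, at a median of 0.13 that became -0.18 under spike-in scaling. Malat1, a nuclear RNA, had 0.404 and 0.339 in the GFP precipitates, against 2.27 and 2.13 in the inputs (-2.57 ± 0.22). Kcnq1ot1, an imprinted antisense RNA, was at least 2.67-fold lower, a call that normexp did not keep. Meg3 (Gtl2) was at 0.90 ± 0.11 and H19 at 0.61 ± 0.09, both imprinted and maternally expressed, and Meg3 was at 1.24 in the IgG mock.

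Markers of somatic cells were more often lower than higher in each list. Their part in the other results was not tested. A precipitate was set against total RNA of the same tissue, so these values do not measure numbers of cells. Of 22 measured macrophage and leukocyte markers 20 were lower and 0 higher by limma, at a median of -0.91, and 0 were higher at an unadjusted p under 0.05. Lyz2 (Lyzs) was at -1.35 ± 0.09, Aif1 at -1.65 ± 0.10 and Adgre1 (Emr1) at -1.14 ± 0.08. The summed relative signal of the list was 21.2 and 22.5 in the GFP precipitates, against 45.1 and 45.0 in the inputs. Of 15 measured peritubular myoid markers 13 were lower and 1 higher, at a median of -1.12, and their summed signal was 88.8 and 87.6 in the GFP precipitates, against 231 and 234 in the inputs. Besides Acta2, Tpm2 was at -2.37 ± 0.10, Actg2 at -1.98 ± 0.10, Tpm1 at -1.93 ± 0.07 and Tagln at -1.47 ± 0.06, all genes of contractile proteins.

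Of 26 measured Sertoli markers 17 were lower and 2 higher, at a median of -0.46. Fshr, the receptor of follicle-stimulating hormone, had 0.221 and 0.224 in the GFP precipitates, against 0.644 and 0.655 in the inputs (-1.54 ± 0.07). Their summed signal was 579 and 594 in the GFP precipitates, against 824 and 858 in the inputs. The higher ones were Dmrt1, which spermatogonia also express, and Cldn11 at 0.49. Of 15 measured Leydig markers 10 were lower and 1 higher, at a median of -0.32 that became 0.03 under median scaling. Akr1b7 was at -1.70 ± 0.07 and Hsd17b3, which makes testosterone, at -1.46 ± 0.09. Of 13 measured endothelial markers 7 were lower and 2 higher, at a median of -0.30 that became 0.04 under median scaling and 0.10 under normexp. Emcn was at -1.74 ± 0.11, a call lost under normexp, while Egfl7 was at 0.78 ± 0.08. Of 5 measured erythroid markers 3 were lower and 1 higher, with the globin genes Hba-a1 at -0.86 ± 0.07 and Hbb-b1 with 19.2 and 19.8 in the GFP precipitates, against 38.6 and 39.2 in the inputs. In the IgG mock against input, the list medians were -0.02 for Sertoli, 0.04 for Leydig, -0.52 for myoid, 0.42 for endothelial, -0.44 for leukocyte and 0.42 for erythroid markers. The somatic markers stayed detectable in the precipitate, with 26 of 26 Sertoli, 15 of 15 myoid and 20 of 22 leukocyte markers well above background on both GFP arrays.

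The fold change was also set against how bright a gene was. Genes were put in 10 bins of equal size by mean signal over the 8 arrays. Those arrays include the GFP and input arrays of the fold change itself, so part of any trend across these bins is built in. In bin 1, the dimmest, the median log2 fold change was -0.92, with 9.78% of genes higher and 55.5% lower. In bin 10, the brightest, it was 0.18, with 47.8% higher and 30.7% lower. In bin 1 only 378 of 1758 genes were above background on both GFP arrays, against 1280 on both input arrays. The gap between bins 10 and 1, 1.10 on the log2 scale, shrank to 0.068 when genes were ranked by input replicate 2 and the fold change was taken against input replicate 1 alone. Ranked that way, bin 2 was lowest, at -0.38, bin 6 highest, at 0.13, and bin 10 was at -0.13. A signal that also reflects the probe is only a rough measure of abundance.

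**Figure D4:**
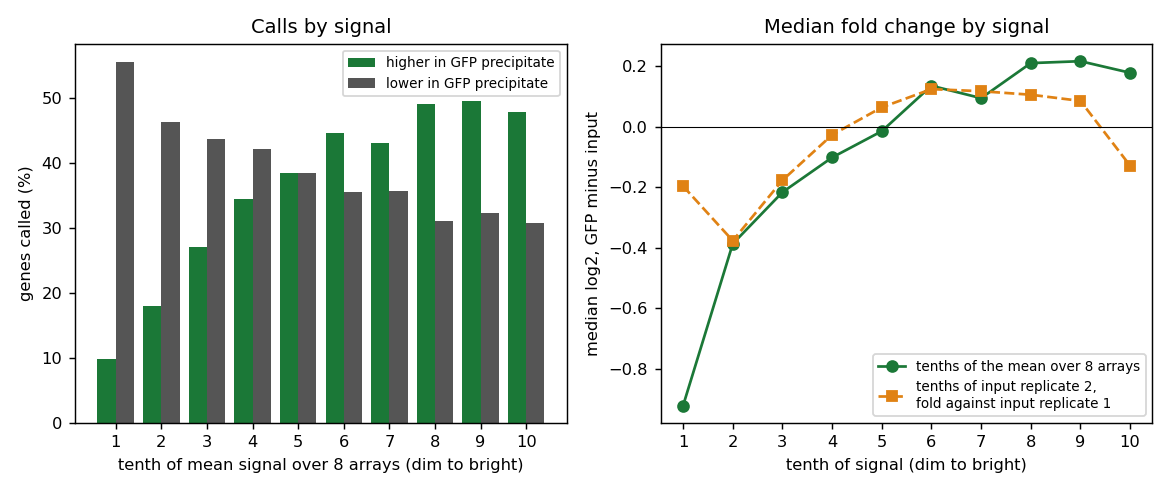
Left, percent of genes called higher (green) or lower (grey) in the GFP precipitate in each of 10 bins of mean signal over the 8 arrays (x axis, dim to bright). Right, median log2 fold change of GFP over input in the same bins (green line) and in bins of input replicate 2 with the fold change against input replicate 1 (dashed orange line), where the gap between bins 10 and 1 falls to 0.068.

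Genes of the sex chromosomes were more often lower than autosomal genes. Of 539 X-linked genes 55.1% were lower and 24.5% higher, at a median of -0.42, against 37.2% lower and 38.2% higher of 14546 autosomal genes, at a median of -0.01. All 8 measured Y-linked genes were lower, at a median of -1.66. Rbmy (Rbmy1a1), a germ cell RNA-binding protein gene, had 2.61 and 2.66 in the GFP precipitates, against 13.4 and 13.4 in the inputs (-2.35 ± 0.11). Eif2s3y, an eIF2 subunit needed by spermatogonia, had 0.765 and 0.729 in the GFP precipitates, against 2.47 and 2.44 in the inputs (-1.72 ± 0.15). Usp9y was at least 5.32-fold lower, a call lost under normexp, Ddx3y was at -1.69, Zfy2 at -1.64, Zfy1 at -1.50, Kdm5d (Jarid1d) at -0.87 and Uba1y (Ube1y1) at -0.33. Of their X-linked partners, Usp9x was called lower at -3.35, Ddx3x at -1.39 and Uba1 (Ube1x) at -1.08, Zfx was called higher at 0.76, and Eif2s3x at 0.20 and Kdm5c (Jarid1c) at 0.30 did not pass. Usp9x was also below input in the other precipitates, at -3.01 in V5 and -3.18 in IgG. Shares by chromosome were not taken for V5 or IgG against input. The X-linked and autosomal genes were not compared by a test, since genes are not replicates of a condition. Among autosomes the medians lay between -0.33 on chromosome 13 and 0.15 on chromosome 15.

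**Figure D5:**
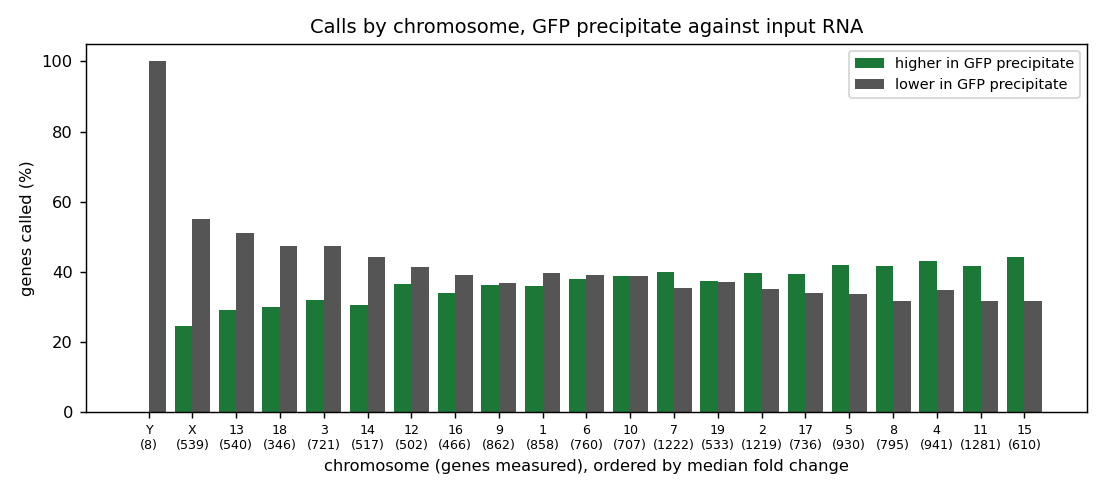
Percent of genes called higher (green) or lower (grey) in the GFP precipitate (y axis) by RefSeq chromosome (x axis, with the number of genes measured), ordered by median fold change. The Y chromosome with 8 genes and the X chromosome with 539 genes stand at the left, with 100% and 55.1% of genes lower.

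The length of the gene on the chromosome went with a small shift. Genes in quartile 4 of genomic span, 53.02 kb or more, had a median log2 fold change of -0.17, with 19.5% lower by at least 2-fold, against 0.01 and 11.2% in quartile 1, up to 8.70 kb. Genes annotated as long noncoding had a median of 0.20 over 367 genes, against -0.02 over 14629 protein-coding genes.

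The authors' deposited table holds means of normalized signal for the GFP precipitate and the input. Over 10038 genes with a single entry, the log2 ratio of those means correlated with the fold changes above at 0.9985 across genes, which are not independent replicates, and both come from the same arrays. The ratios of the authors' deposited table were higher by a median of 0.29. That table was scaled to the median, not to the 75th percentile. Of 2342 called genes of at least 2-fold, 2342 had the same sign in the authors' deposited table, and of all 7508 called genes 7244 did. In the authors' deposited table Tex19.1 had means of 1227 for GFP and 163 for input, and Sycp1 had 0.854 for GFP and 62.2 for input.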

How the data were processed

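RNA from day 14 mouse testes was hybridised to 8 one-colour Agilent arrays, 2 per group. The authors deposited intensity values read with Feature Extraction 9.1.3.1 from Agilent. That program, per the file headers, removed background and spatial trends, gave dim spots substitute values and did not scale arrays to one another. A deposited table adds signal values, which its own header lines describe as scaled to the median and averaged within a condition (GeneSifter, per the file headers); its 6 other value columns were not used.

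Members and gene lists were chosen with earlier results of these data known. Here each non-control spot's log2 processed signal was centred on the 75th percentile of its array. Outlier spots were dropped and spots of one probe averaged. A probe was kept (25587 of 41174) if 1 group had it well above background on each of its arrays. The brightest probe stood for each of 17574 gene names. RefSeq (GRCm38.p6) names came from the accession for 22944 probes and from the name for 9772.

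The model was a mean per group over 8 arrays, fitted in R 4.3.3 with limma 3.58.1 (4 residual and 2.41 prior degrees of freedom). Every adjusted p and SE comes from it, two-sided, Benjamini-Hochberg adjusted over all genes, with calls under 0.05. An exact permutation test of 2 arrays against 2 cannot go below p = 0.333. The number of arrays limits the precision. A gene not well above background on either array of the dimmer group got a bound, taken against the higher of that group's lowest signal well above background and its own signal, per array. Tested on simulated data for 17574 genes, GFP minus input recovered 39 of 50 genes raised by log2 1 and made 7 false calls. It recovered 16 of 50 genes raised by log2 0.5. Far fewer genes were changed in the simulation than were called here, and it had no slide effect. Its false calls therefore give no error count for the real data.

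Genes were named by rule: the 10 highest and 10 lowest called genes above background in both groups, 5 each way with only a bound, 5 each way in the brightest of 10 signal bins (clone names and accessions passed over), Dazl, Pabpc1 and reported DAZL-bound transcripts, and up to 4 called members of each list by smallest p. Other list members and the Y-linked genes were named after their values were seen. Alternatives covered scaling, background correction, filters, probe choice and the arrays included. Protein length and probe sequence were not analysed here, and 1 of the 10 lowest genes is not reported here.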

Additional observations from a re-analysis of the deposited data

How the results depend on the processing

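Over 17574 genes, 6356 were called higher and 6870 lower in the GFP precipitate. Median scaling gave 4506 lower, 3676 at least 2-fold higher and 1741 at least 2-fold lower, and turned Alas2 to 0.077. Spike-in scaling gave 4165 higher, 1039 at least 2-fold higher and 4476 at least 2-fold lower. Normexp gave 3192 higher, 2506 lower and 1229 at least 2-fold lower, weakened 22 named genes below the threshold and turned Olfr683 to 0.17, Olfr507 to 0.20, Olfr127 to 0.086, Olfr374 to 0.041, Kcnq1ot1 to 0.055 and Sox17 to 0.095; the cause was not tested. The mean over kept probes turned Sdad1 to -0.60 and Pam to -0.28, since their probes point in different directions. The authors' deposited means gave a median of 0.34 over the genes compared, against 0.036 here, and ranking by input replicate 2 gave the gap between signal bins 10 and 1 as 0.068, against 1.10. Leaving out 1 array at a time gave 5570 to 5734 higher, 5863 to 6417 lower, 1967 to 2009 at least 2-fold higher and 2635 to 3101 at least 2-fold lower. Replicates of the same number did not deviate together (r = -0.0634 between GFP and input), and with the replicate block 6332 genes were higher and 6798 lower. Without the IgG arrays, an alternative added after seeing the data, 6665 were higher and 7130 lower. A slide block could not be fitted. Of 37 list medians 8 changed sign under median scaling, 6 under spike-in scaling, 4 under normexp and 0 under quantile normalization. Median and spike-in scaling shift all genes alike: relative to the median of all genes, 0 changed sign under either, 1 under quantile normalization and 5 under normexp. Genes near background in the precipitate are limited by their signal over background.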
